A study of Mus musculus with 12 samples.

Results

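The genes described here are 30 members of cholesterol metabolism: 10 enzymes of sterol synthesis before lanosterol, 8 enzymes after lanosterol, 5 regulators of the SREBP transcription factors and of sterol traffic, 2 LXR nuclear receptors, and 5 genes of sterol efflux, lipoprotein uptake control and cholesterol ester storage. They were taken by symbol, and all 30 were found among the 53801 genes of the deposited tables, each as a single row. Bulk RNA sequencing was done on heart macrophages of C57BL/6N mice, labelled male, after myocardial infarction made by ligating the left anterior descending coronary artery. Each of 4 groups has 3 libraries, 12 in all. WT CCR2low and WT CCR2hi come from wild-type mice, and Bhlhe41dTomato-Cre+/- CCR2low and Bhlhe41dTomato-Cre+/- CCR2hi come from mice with 1 copy of a dTomato-Cre allele of Bhlhe41. All 4 groups had an infarction, so there is no uninjured control. The sources used here give neither the time after infarction nor the number of animals behind a library, so p values measure the spread between these libraries, which may be technical. The gates are named for CCR2, a chemokine receptor of monocytes that binds CCL2.

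Macrophages take up cholesterol from dead cells and lipoproteins, and they cannot break the sterol ring down. SREBP2, escorted by SCAP and held back by INSIG proteins, switches on the synthesis enzymes when membrane sterol is low. LXR receptors are activated by oxysterols and induce the exporters ABCA1 and ABCG1, the lipid carrier apolipoprotein E, and the ubiquitin ligase MYLIP, which degrades lipoprotein receptors. SOAT1 turns free cholesterol into cholesterol esters for storage in droplets. Bhlhe41 encodes a basic helix-loop-helix repressor that binds E-box sequences.

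The libraries held 17.7 to 20.83 M counts each. Counts of 17 macrophage identity genes, among them Csf1r, Cd68 and C1qa, made up 3.49 to 3.8% of counts in WT CCR2low, 0.247 to 0.58% in WT CCR2hi, 3.07 to 3.44% in Bhlhe41dTomato-Cre+/- CCR2low and 0.85 to 1.12% in Bhlhe41dTomato-Cre+/- CCR2hi. None of the 17 was at 0 in any group. Counts of 16 fibroblast genes ran the other way, at 0.682 to 1.1%, 9.19 to 10.2%, 0.333 to 0.708% and 4.97 to 6.29% in the same order, and none of these was at 0 either. The CCR2hi libraries thus carry less macrophage RNA and more fibroblast RNA than their label gives, and in bulk RNA fewer cells of a type cannot be told apart from less RNA per cell. Bhlhe41 counted 531 to 920 reads in the WT libraries and 132 to 477 in the Bhlhe41dTomato-Cre+/- libraries. Ccr2 counted 346 to 765 in WT CCR2low, below the 853 to 1702 of WT CCR2hi, while in Bhlhe41dTomato-Cre+/- the gates overlapped, at 1115 to 1645 and 1477 to 1735. Xist, which is expressed from the inactive X chromosome of females, counted 0 to 3 in WT libraries and 1403 to 3699 in Bhlhe41dTomato-Cre+/- libraries, against the male label. Genotype and sex of the animals can therefore not be told apart here, and 2 members, Ebp and Nsdhl, are X-linked.

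The stretches upstream of 4 members are shown because they hold the letters that SREBP or Bhlhe41 are known to bind. Windows of 300 bases, from 250 before to 50 after each RefSeq start on GRCm38.p6, were searched on both strands for a sterol regulatory element (TCACNCCAC), an E-box (CACGTG) and the CCAAT box (CCAAT). A window was given for 25 of the 30 members, and Abcg1, Fdft1, Fdps, Sqle and Stard4 are named only. The sterol regulatory element letters were in 1 of the 25 members, Hmgcs1, and in 1.44% of all 27025 genes with a window. CCAAT was in 19 of the 25 members and in 41.1% of all genes. CACGTG was in 6 of the 25, namely Abca1, Dhcr7, Hsd17b7, Insig1, Sc5d and Scap, and in 8.09% of all genes. Each stretch below runs 5′ to 3′ on the gene's strand from 200 to 51 bases before the RefSeq start, with the sterol regulatory element (Hmgcs1) or the E-box (the other 3) in capitals. They lie at chr13:119690151-119690300, plus strand, for Hmgcs1, at chr5:28071212-28071361, plus strand, for Insig1, at chr4:53159946-53160095, minus strand, for Abca1, and at chr1:169969256-169969405, minus strand, for Hsd17b7.
Hmgcs1: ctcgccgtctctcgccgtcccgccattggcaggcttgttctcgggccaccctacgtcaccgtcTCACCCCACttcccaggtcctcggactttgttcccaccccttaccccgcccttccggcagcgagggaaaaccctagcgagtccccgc
Insig1: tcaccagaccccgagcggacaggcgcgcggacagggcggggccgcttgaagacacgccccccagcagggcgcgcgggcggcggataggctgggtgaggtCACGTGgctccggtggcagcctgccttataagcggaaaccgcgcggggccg
Abca1: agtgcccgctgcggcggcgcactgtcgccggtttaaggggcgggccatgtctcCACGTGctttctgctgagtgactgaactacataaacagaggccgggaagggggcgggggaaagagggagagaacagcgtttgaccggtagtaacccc
Hsd17b7: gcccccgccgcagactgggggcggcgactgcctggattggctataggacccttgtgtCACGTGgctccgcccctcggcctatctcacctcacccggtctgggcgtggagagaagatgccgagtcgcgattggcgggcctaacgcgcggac

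A match in these windows is a description of the letters, and binding was not measured. The 6 genes with the E-box did not move together between genotypes. Abca1 was higher in Bhlhe41dTomato-Cre+/- in both gates, Insig1 was higher in CCR2hi, Scap was lower in both gates, Dhcr7 was lower in CCR2low, and Hsd17b7 and Sc5d passed the test in neither gate. Values for each follow by role.

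All 30 members passed the filter on low counts and were tested with the other genes, 14964 in all, by edgeR's quasi-likelihood test. A gene was called at a Benjamini-Hochberg adjusted p under 0.05, and all adjusted p values below come from that fit. Between the gates of WT mice, 16 members were higher in CCR2low (29.8% of all tested genes were), 3 were lower (30%) and 11 were not called, against 59.8% of all genes called in either direction. In Bhlhe41dTomato-Cre+/- mice 9 members were higher in CCR2low (24.9% of all genes), 5 were lower (29.1%) and 16 were not called, with 54.1% of all genes called. Comparing genotypes within CCR2low, 4 members were higher in Bhlhe41dTomato-Cre+/- (16.4% of all genes) and 6 were lower (26.7%), and within CCR2hi 8 were higher (16.2%) and 1 was lower (15.9%). In either direction, 43% and 32.1% of all genes were called in these comparisons. The gate difference itself differed between genotypes for 2 members, both with a smaller CCR2low minus CCR2hi difference in Bhlhe41dTomato-Cre+/- (7.85% of all genes), and for none in the other direction (4.74%), with 12.6% of all genes called. The median member stood at 0.47, 0.10, -0.12, 0.29 and -0.33 log2 units in these 5 comparisons, in this order, and the median tested gene at 0.01, -0.01, -0.18, -0.03 and -0.18. Without Bhlhe41dTomato-Cre+/- CCR2low replicate 1, the count of genotype calls in CCR2low fell from 10 to 6. Without WT CCR2hi replicate 2, or without Bhlhe41dTomato-Cre+/- CCR2hi replicate 2, that in CCR2hi fell from 9 to 5. The balance of directions also moved with the setting. Between the WT gates limma on log2(TPM + 1) called 11 higher and 7 lower. The count there was 14 higher and 3 lower without WT CCR2hi replicate 1, 15 and 6 without Bhlhe41dTomato-Cre+/- CCR2low replicate 3, 12 and 5 without Bhlhe41dTomato-Cre+/- CCR2hi replicate 1, and 13 and 6 without its replicate 2 or 3. Between the genotypes in CCR2hi, limma on log2(TPM + 1) called 3 higher and 3 lower, and 4 of the 9 calls remained. The median of all genes moved with these settings too. Between the WT gates limma moved it by -0.32. Leaving out WT CCR2hi replicate 1 moved it by -0.21, Bhlhe41dTomato-Cre+/- CCR2low replicate 3 by -0.15, and any Bhlhe41dTomato-Cre+/- CCR2hi library by -0.2. Between the genotypes in CCR2hi limma moved it by -0.13. Between the genotypes in CCR2low the same left-out libraries moved it by 0.19, 0.16 and 0.19. Values of single members below carry these shifts.

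**Figure D1:**
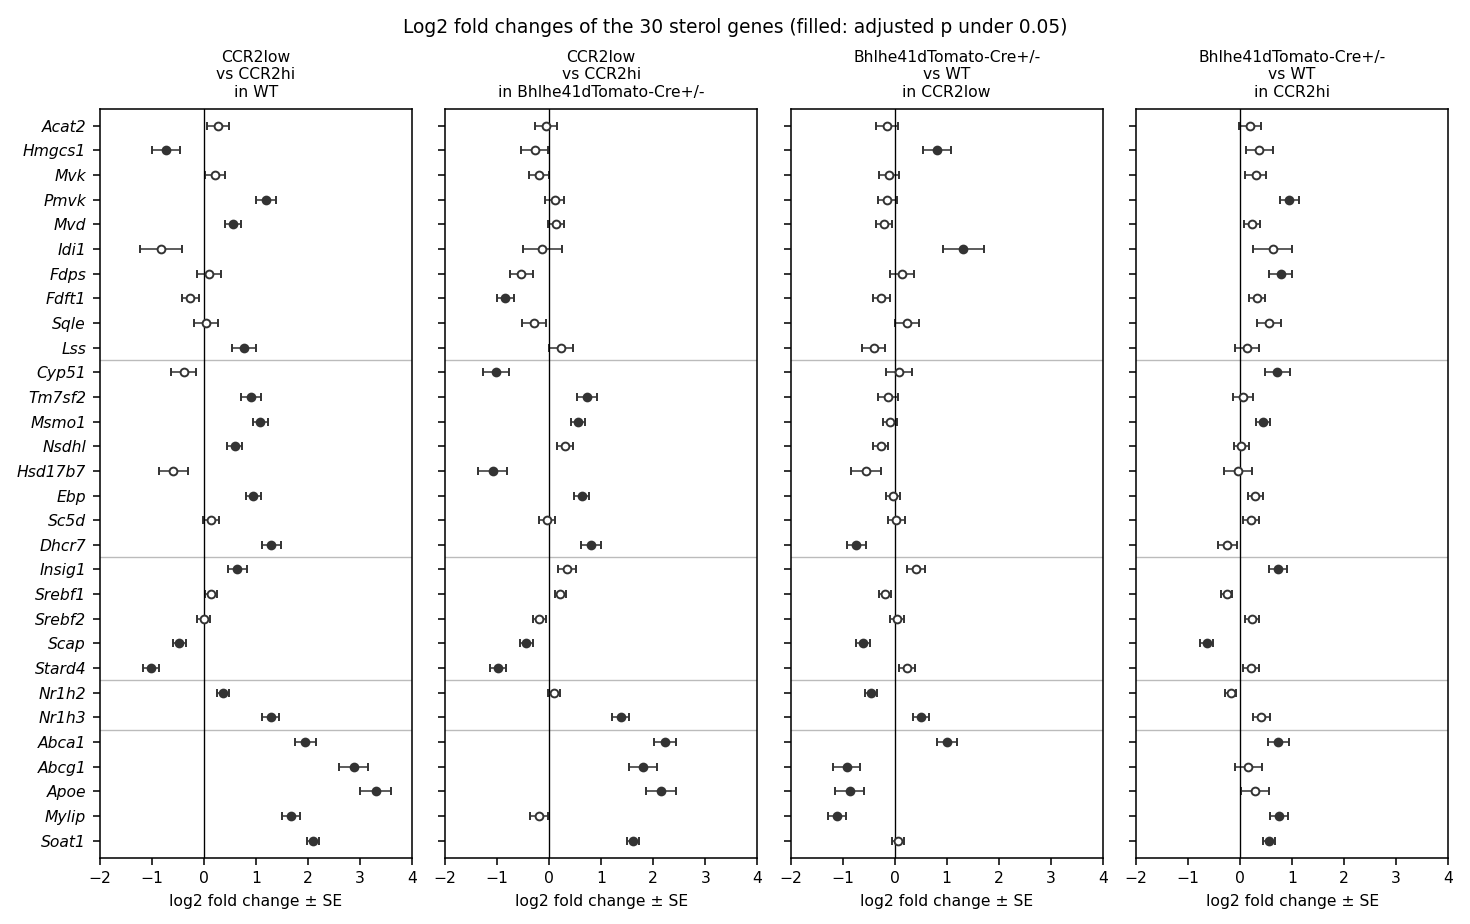
Log2 fold changes (horizontal axis, log2 units, with SE as bars) of the 30 members in 4 comparisons, 3 libraries per group, where filled points have an adjusted p under 0.05 and grey lines part the roles. The efflux, uptake control and storage genes at the bottom reach from 1.67 to 3.30 between the WT gates. Of the genes called there, Hmgcs1, Scap and Stard4 lie to the left, as do some that were not called, such as Idi1.

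In at least 1 of these 4 group comparisons 24 of the 30 members were called, and so were 83% of all tested genes, so this count is near the background. Groups without overlap were common as well. Of all 14964 tested genes, 5047 lay wholly higher and 4823 wholly lower in WT CCR2low than in WT CCR2hi, against 16 and 3 members. Between the Bhlhe41dTomato-Cre+/- gates these were 4295 and 4881 genes, against 12 and 5 members. For Bhlhe41dTomato-Cre+/- against WT they were 2856 and 4831 in CCR2low (5 and 11 members). In CCR2hi they were 3420 and 3826 (11 and 2 members). The gate comparisons use separate libraries. Of the 16 members higher in WT CCR2low, 9 were also higher in Bhlhe41dTomato-Cre+/- CCR2low, and these are all 9 called higher there: Abca1, Abcg1, Apoe, Soat1, Nr1h3, Dhcr7, Ebp, Msmo1 and Tm7sf2. Of all tested genes higher in WT CCR2low, 64.4% were also higher in Bhlhe41dTomato-Cre+/- CCR2low, and of those higher in Bhlhe41dTomato-Cre+/- CCR2low, 76.9% were higher in WT CCR2low. Scap and Stard4 were lower in CCR2low in both genotypes, 2 of the 3 members lower in WT, against 72.8% of all genes lower in WT. Every gate difference is relative to the scaling of the libraries by TMM. When libraries were scaled to the 17 macrophage identity genes instead, the median of all genes moved by -3.33 log2 units in the WT gate comparison and by -1.98 in the Bhlhe41dTomato-Cre+/- one, and 28 and 25 members were then lower in CCR2low and none was higher. For the genotypes the same scaling moved the median gene by 0.13 in CCR2low, where no member was then called, and by -1.22 in CCR2hi, where 20 members were then lower and none was higher.

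The efflux and storage genes held the widest differences between the gates: all 5 were higher in CCR2low than in CCR2hi in WT and 4 of 5 in Bhlhe41dTomato-Cre+/-, Mylip being the exception (under the macrophage scaling 3 of 5 and 1 of 5 were instead lower). Of all tested genes 29.8% and 24.9% were higher in CCR2low in these 2 comparisons. Apoe, the apolipoprotein that macrophages secrete with exported lipid, was by TPM (the deposited abundance, scaled by transcript length) the most abundant of all genes in each WT CCR2low library, at 56417.9, 54736.67 and 57897.82 TPM, or 5.47 to 5.79% of the total. In WT CCR2hi it stood at 3988.06, 8536.65 and 9575.18 TPM and ranked between 7 and 21. Counts scaled by TMM library size (CPM) gave 36010, 32130 and 32030 in WT CCR2low against 1777, 3908 and 4471 in WT CCR2hi, so that the groups were far apart. The fold was 9.86, a log2 difference of 3.30 ± 0.30 (SE, adjusted p = 7.67e-07). In Bhlhe41dTomato-Cre+/-, Apoe stood at 18370, 15000 and 21760 CPM in CCR2low and at 3751, 3841 and 4801 CPM in CCR2hi, a log2 difference of 2.15 ± 0.29 (adjusted p = 2.71e-05). Under the macrophage scaling these log2 differences were 0.16 (adjusted p = 0.565) and 0.17 (adjusted p = 0.553). Apoe thus went with the share of macrophage identity counts across the gates of both genotypes.

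Abcg1, the transporter that loads cholesterol onto high-density lipoprotein particles, had 151, 158 and 161 CPM in WT CCR2low against 11.5, 24.7 and 27.5 in WT CCR2hi. The difference was 7.37-fold (log2 2.88 ± 0.28, adjusted p = 1.21e-06). In Bhlhe41dTomato-Cre+/- the values were 65, 93.4 and 90.2 CPM in CCR2low and 18.2, 27.8 and 25.1 CPM in CCR2hi, a 3.5-fold difference (log2 1.81 ± 0.27, adjusted p = 6.78e-05). The groups did not overlap in either genotype. With the macrophage scaling Abcg1 differed by -0.26 (adjusted p = 0.364) and -0.16 (adjusted p = 0.586). Its gate difference, like that of Apoe, was thus close to that of the macrophage identity genes.

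Abca1, which hands cholesterol and phospholipid to lipid-poor apolipoproteins, stood at 283, 303 and 393 CPM in WT CCR2low and at 88.0, 76.3 and 88.6 CPM in WT CCR2hi. That is a 3.87-fold difference (log2 1.95 ± 0.20, adjusted p = 2.24e-06), smaller than that of Abcg1. In Bhlhe41dTomato-Cre+/- the values were 729, 782 and 460 CPM in CCR2low against 141, 160 and 120 CPM in CCR2hi, a 4.68-fold difference (log2 2.23 ± 0.20, adjusted p = 1.03e-06). Soat1, the acyltransferase that forms the stored esters, had 220, 216 and 232 CPM in WT CCR2low against 53.8, 51.5 and 51.0 in WT CCR2hi. It had the smallest adjusted p of the members in this comparison (4.27-fold, log2 2.10 ± 0.12, adjusted p = 3.48e-08). In Bhlhe41dTomato-Cre+/- Soat1 stood at 224, 213 and 261 CPM in CCR2low and 72.2, 81.0 and 75.7 in CCR2hi (3.05-fold, log2 1.61 ± 0.11, adjusted p = 2.04e-07). Under the macrophage scaling both genes were lower in WT CCR2low instead, by log2 -1.39 (adjusted p = 0.00202) for Abca1 and -1.26 (adjusted p = 0.00128) for Soat1, and neither was called between the gates of Bhlhe41dTomato-Cre+/-.

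Mylip was the member whose gate difference depended most on genotype. In WT it stood at 71.2, 79.6 and 93.1 CPM in CCR2low and at 27.5, 24.4 and 24.5 CPM in CCR2hi, and the groups did not overlap. The WT difference was 3.19-fold (log2 1.67 ± 0.18, adjusted p = 2.59e-06). The Bhlhe41dTomato-Cre+/- libraries stood at 36.6, 46.0 and 30.7 CPM in CCR2low and at 49.7, 34.9 and 44.5 CPM in CCR2hi, which overlap (log2 -0.19 ± 0.17, adjusted p = 0.373). The difference of these differences was -1.86 ± 0.24 (adjusted p = 0.00107). It was called in 18 of the 19 other settings, the exception being the macrophage scaling, where it was -0.47 (adjusted p = 0.439) and both gate differences were negative.

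**Figure D2:**
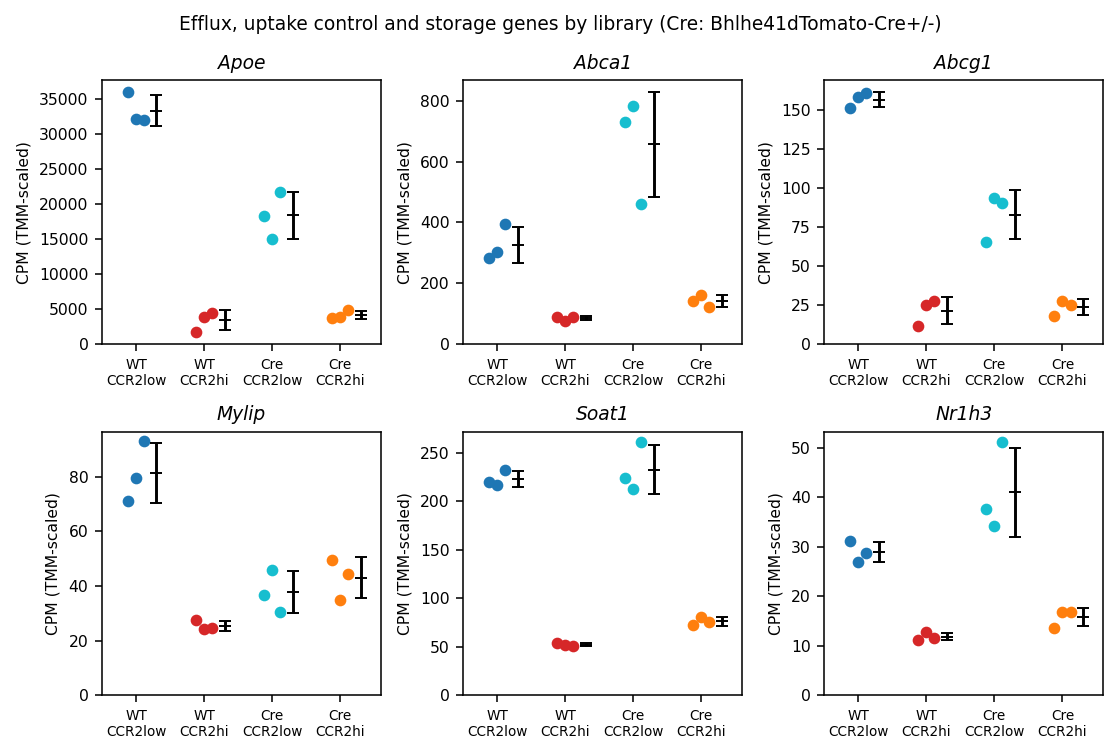
CPM on TMM-scaled library sizes (vertical axes from 0) of 6 members in the 4 groups, with 1 point per library and the mean with SD of 3 libraries in black (Cre, Bhlhe41dTomato-Cre+/-). Abca1 in Cre CCR2low lies above WT CCR2low in each library, while Apoe, Abcg1 and Mylip lie below it.

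Between genotypes the efflux genes moved in opposite directions within CCR2low: Abca1 rose, while Abcg1, Apoe and Mylip fell, and Soat1 was not called (under the macrophage scaling none of the 5 was called, with the same signs). In the same comparison markers of several other cell types were lower in Bhlhe41dTomato-Cre+/-. These were 8 of 8 mural genes (0.0119 to 0.0221% of counts against 0.0501 to 0.0547% in WT) and 9 of 10 cardiomyocyte genes (0.00275 to 0.0037% against 0.0109 to 0.0191%). So were 11 of 16 fibroblast and 5 of 5 adipocyte genes, with 26.7% of all tested genes lower and 16.4% higher. Of 6 monocyte genes, 3 were higher and 1 lower (0.0585 to 0.0747% of counts against 0.0234 to 0.0404%). Of 7 neutrophil genes, 1 was higher and none lower. Lower were 1 of 10 endothelial and 1 of 4 B cell genes. Of 5 T and NK cell genes, 1 was higher and 2 lower. No mural, cardiomyocyte or fibroblast marker was at 0 in either group. The part of these cell types in the genotype differences was not tested. Abca1 was 2.01-fold higher in Bhlhe41dTomato-Cre+/- CCR2low than in WT CCR2low (log2 1.01 ± 0.20, adjusted p = 0.00136), its lowest library at 460 CPM against a WT maximum of 393. Mylip was 2.15-fold lower (log2 -1.11 ± 0.17, adjusted p = 0.000346). Abcg1 was 1.89-fold lower (log2 -0.92 ± 0.26, adjusted p = 0.0118) and Apoe 1.82-fold lower (log2 -0.86 ± 0.28, adjusted p = 0.0229). In each of these 4 genes the 3 libraries of the genotypes did not overlap. The same held for 2856 higher and 4831 lower genes of the 14964 tested. The calls of Apoe and Abcg1 were the less stable. Apoe was no longer called without WT CCR2low replicate 1 (-0.81, adjusted p = 0.0643), without Bhlhe41dTomato-Cre+/- CCR2low replicate 1 (-0.86, adjusted p = 0.0651) or replicate 2 (-0.73, adjusted p = 0.0805), or without any of the 3 Bhlhe41dTomato-Cre+/- CCR2hi libraries (-0.67, adjusted p = 0.0764 to 0.0851). Without any of those CCR2hi libraries the median of all genes moved by 0.19. Abcg1 was not called without Bhlhe41dTomato-Cre+/- CCR2low replicate 1 (-0.77, adjusted p = 0.0594). With no filter beyond 1 count both also missed the threshold, at adjusted p = 0.134 and 0.0807.

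In CCR2hi, 3 of the 5 genes were higher in Bhlhe41dTomato-Cre+/-, and none was lower. Of all tested genes 16.2% were higher and 15.9% lower in this comparison. There 7 of 7 neutrophil markers were higher as well (0.0821 to 0.125% of counts against 0.00363 to 0.00812% in WT), as were 4 of 6 monocyte markers (0.0861 to 0.102% against 0.0403 to 0.0673%), while 8 of 16 fibroblast markers were lower. None of these markers was at 0 in either group, and their part in the genotype differences in CCR2hi was not tested. Mylip was 1.69-fold higher (log2 0.76 ± 0.17, adjusted p = 0.00511), in the direction opposite to CCR2low, a call lost on log2(TPM + 1) (0.56, adjusted p = 0.0675). Abca1 was 1.67-fold higher (log2 0.74 ± 0.20, adjusted p = 0.0119), and it was the only member higher in both gates. Soat1 was 1.47-fold higher by counts (log2 0.55 ± 0.11, adjusted p = 0.00254), but on log2(TPM + 1) its difference was 0.11 (adjusted p = 0.525). The Abca1 call was lost without WT CCR2hi replicate 2 (0.67, adjusted p = 0.0529), without Bhlhe41dTomato-Cre+/- CCR2hi replicate 2 (0.63, adjusted p = 0.0685) and on log2(TPM + 1) (0.45, adjusted p = 0.212). Apoe (log2 0.29 ± 0.28, adjusted p = 0.45) and Abcg1 (log2 0.16 ± 0.26, adjusted p = 0.681) were not called, and their groups overlapped. The macrophage identity share was itself higher in Bhlhe41dTomato-Cre+/- CCR2hi than in WT CCR2hi, at 0.85 to 1.12% against 0.247 to 0.58%. Scaled to those genes, all 5 were negative, Apoe at -0.75 (adjusted p = 0.0196), Abcg1 at -0.89 (adjusted p = 0.0102), and Abca1, Mylip and Soat1 not called at -0.49, -0.49 and -0.69.

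Ratios of genes within a library do not depend on how libraries are scaled, and they were computed after the values above were seen. The ratio of Abca1 to Abcg1 by TPM was 0.727, 0.769 and 0.890 in WT CCR2low and 4.55, 3.39 and 1.89 in Bhlhe41dTomato-Cre+/- CCR2low. The geometric means, 0.792 and 3.08, differed 3.89-fold, and the groups did not overlap. No test is given, since the genes of the ratio were chosen for their opposite differences. In CCR2hi the ratios overlapped, at 2.97, 1.20 and 1.21 in WT and 3.01, 2.06 and 1.63 in Bhlhe41dTomato-Cre+/-. ABCG1 message thus outnumbered that of ABCA1 in WT CCR2low, and ABCA1 message outnumbered that of ABCG1 in the 9 other libraries.

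Per 100 macrophage identity counts, Apoe had 91.8, 80.7 and 90.9 counts in WT CCR2low against 73.7, 83.1 and 78.8 in WT CCR2hi. In Bhlhe41dTomato-Cre+/- it had 53.7, 47.7 and 55.9 in CCR2low and 47.9, 45.0 and 47.0 in CCR2hi. All 6 Bhlhe41dTomato-Cre+/- libraries lay below all 6 WT libraries, by 1.68-fold in each gate. Abcg1 showed the same order, with 0.386 to 0.456 and 0.476 to 0.526 counts per 100 in the WT gates and 0.190 to 0.297 and 0.232 to 0.326 in the Bhlhe41dTomato-Cre+/- gates. Abca1 did not: it had 0.721 to 1.12 in WT CCR2low, below the 1.18 to 2.49 of Bhlhe41dTomato-Cre+/- CCR2low, but 1.56 to 3.65 in WT CCR2hi, overlapping the 1.18 to 1.87 of Bhlhe41dTomato-Cre+/- CCR2hi. The high value of 3.65 is from WT CCR2hi replicate 1, the library with the lowest macrophage identity share (0.247%) and a fibroblast share of 9.53%. The part of fibroblast RNA in the Abca1 counts was not tested.

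**Figure D3:**
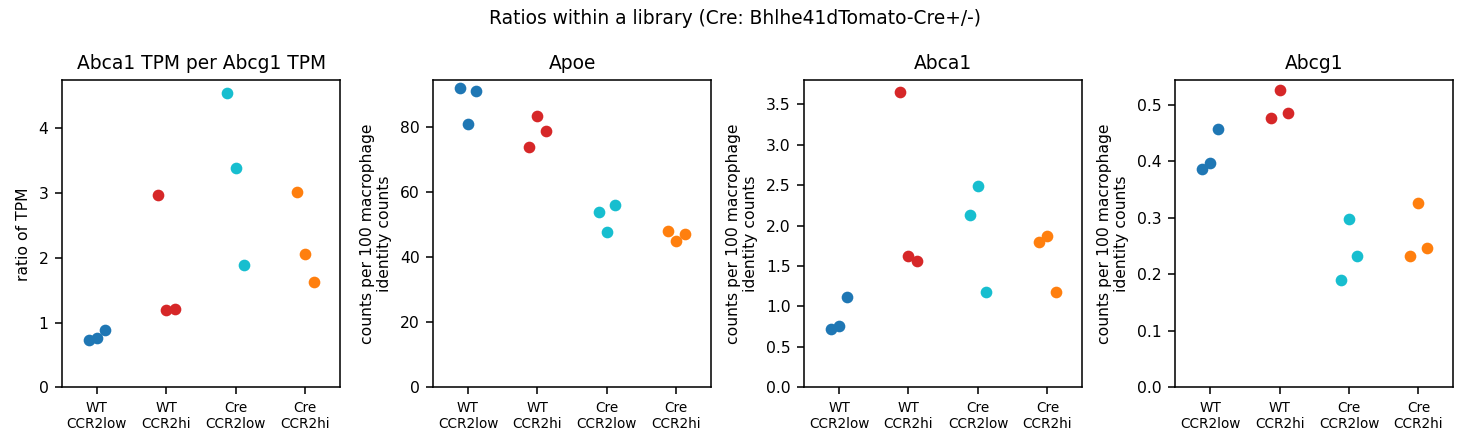
Ratios within each library (vertical axes from 0): TPM of Abca1 over TPM of Abcg1, and counts of Apoe, Abca1 and Abcg1 per 100 counts of the macrophage identity genes, 1 point per library (Cre, Bhlhe41dTomato-Cre+/-). For Apoe and Abcg1 the Cre points lie below the WT points in both gates, and for Abca1 the CCR2hi groups overlap.

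The LXR receptors were both higher in WT CCR2low. Nr1h3, which encodes LXR alpha, stood at 31.1, 27.0 and 28.7 CPM in WT CCR2low and at 11.2, 12.8 and 11.7 CPM in WT CCR2hi (2.43-fold, log2 1.28 ± 0.16, adjusted p = 1.57e-05). In Bhlhe41dTomato-Cre+/- it stood at 37.6, 34.1 and 51.3 CPM in CCR2low and 13.7, 16.9 and 16.9 CPM in CCR2hi (2.6-fold, log2 1.38 ± 0.16, adjusted p = 9.43e-06). Scaled to macrophage identity genes the gate differences of Nr1h3 were -2.04 and -0.62. Within CCR2low, Nr1h3 was 1.42-fold higher in Bhlhe41dTomato-Cre+/- (log2 0.50 ± 0.16, adjusted p = 0.0212), with no overlap, and the call was lost without WT CCR2low replicate 2 (0.45, adjusted p = 0.0811) or replicate 3 (0.49, adjusted p = 0.0515). Within CCR2hi its genotype difference was not called (log2 0.41 ± 0.16, adjusted p = 0.0718), also with no overlap. The interaction was 0.09 ± 0.23 (adjusted p = 0.817). Under the macrophage scaling the genotype differences were 0.61 in CCR2low (adjusted p = 0.194) and -0.80 in CCR2hi (adjusted p = 0.0267).

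Nr1h2 encodes LXR beta, the form found in most cell types, and its differences were smaller. It stood at 107, 108 and 109 CPM in WT CCR2low, 74.3, 91.3 and 86.2 in WT CCR2hi, 74.8, 75.4 and 86.2 in Bhlhe41dTomato-Cre+/- CCR2low and 71.1, 72.2 and 78.4 in Bhlhe41dTomato-Cre+/- CCR2hi. The WT CCR2low libraries lay above the 9 others. It was lower in Bhlhe41dTomato-Cre+/- CCR2low than in WT CCR2low (log2 -0.46 ± 0.11, adjusted p = 0.00583) and higher in WT CCR2low than in WT CCR2hi (log2 0.37 ± 0.11, adjusted p = 0.0129). The gate call turned to -0.05 on log2(TPM + 1) (adjusted p = 0.745) and was lost without WT CCR2hi replicate 1 (0.08, adjusted p = 0.57), Bhlhe41dTomato-Cre+/- CCR2low replicate 3 (0.21, adjusted p = 0.0834) or any Bhlhe41dTomato-Cre+/- CCR2hi library (0.16, adjusted p = 0.254 to 0.266). The genotype call was lost without any Bhlhe41dTomato-Cre+/- CCR2hi library (-0.27, adjusted p = 0.0896 to 0.0968) and with no filter beyond 1 count (-0.32, adjusted p = 0.127). That filter also ended the gate call (0.32, adjusted p = 0.0947). Leaving out any Bhlhe41dTomato-Cre+/- CCR2hi library moved the median of all genes by -0.2 between the WT gates. Between the genotypes in CCR2low it moved by 0.19. By TPM, Nr1h2 was at a mean of 89.6 in WT CCR2low and Nr1h3 at 23.9, so LXR beta was the more abundant message.

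Among the SREBP regulators, Scap, Insig1 and Stard4 were called between the WT gates, and Srebf1 and Srebf2 were not. Srebf2, which encodes the sterol-sensing factor SREBP2, had 119, 131 and 98.0 CPM in WT CCR2low against 129, 107 and 112 in WT CCR2hi. In Bhlhe41dTomato-Cre+/- it had 112, 115 and 133 CPM in CCR2low and 139, 128 and 143 in CCR2hi. It was called in none of the 4 group comparisons, with log2 differences from -0.19 to 0.23. By TPM, however, its gates did not overlap in either genotype, at 34.8 to 42.2 in WT CCR2low against 44.1 to 57.8 in WT CCR2hi and at 38.8 to 40.1 against 48.6 to 54.2 in Bhlhe41dTomato-Cre+/-. On log2(TPM + 1) it was called lower in CCR2low, by -0.35 in WT (adjusted p = 0.0285) and -0.39 in Bhlhe41dTomato-Cre+/- (adjusted p = 0.02), and library size scaling gave -0.40 in the latter (adjusted p = 0.0133). Srebf1 was also called in none, between -0.26 and 0.21, though DESeq2 called it higher in CCR2low of Bhlhe41dTomato-Cre+/- (0.26, adjusted p = 0.0231). Between the genotypes in CCR2hi it was called lower in Bhlhe41dTomato-Cre+/- by DESeq2 (-0.29, adjusted p = 0.0204), on log2(TPM + 1) (-0.43, adjusted p = 0.0353) and without Bhlhe41dTomato-Cre+/- CCR2low replicate 3 (-0.28, adjusted p = 0.0429). Under the macrophage scaling, Srebf1 was lower in CCR2low by 3.19 and 1.77 log2 units in WT and Bhlhe41dTomato-Cre+/-, as most genes were.

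Scap, the escort that carries SREBP from the endoplasmic reticulum to the Golgi, was lower in Bhlhe41dTomato-Cre+/- in both gates and lower in CCR2low in both genotypes. The values were 66.3, 66.7 and 57.9 CPM in WT CCR2low against 91.3, 92.3 and 81.2 in WT CCR2hi. In Bhlhe41dTomato-Cre+/- they were 36.2, 39.9 and 49.3 CPM in CCR2low and 56.4, 54.1 and 59.1 in CCR2hi. No pair of groups compared overlapped. The genotype differences were 1.52-fold in CCR2low (log2 -0.61 ± 0.13, adjusted p = 0.0025) and 1.56-fold in CCR2hi (log2 -0.64 ± 0.13, adjusted p = 0.00236), and the interaction was 0.04 ± 0.18 (adjusted p = 0.918). The gate differences were -0.47 ± 0.13 in WT (adjusted p = 0.00646) and -0.44 ± 0.13 in Bhlhe41dTomato-Cre+/- (adjusted p = 0.0118), the latter lost without Bhlhe41dTomato-Cre+/- CCR2low replicate 1 (-0.34, adjusted p = 0.0651) and with no filter beyond 1 count (-0.29, adjusted p = 0.167). Under the macrophage scaling Scap kept its sign in all 4, and only the genotype call in CCR2low was lost (-0.48, adjusted p = 0.363). By TPM, whose transcript lengths are estimated per library, the WT gate means were further apart, at 22.7 and 47.4.

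Insig1, which retains SCAP in the endoplasmic reticulum and is itself a target of SREBP, stood at 56.8, 58.2 and 58.0 CPM in WT CCR2low and at 50.5, 28.1 and 31.9 CPM in WT CCR2hi. The Bhlhe41dTomato-Cre+/- libraries stood at 81.1, 75.8 and 73.7 CPM in CCR2low and 63.5, 62.4 and 57.0 CPM in CCR2hi. Each Bhlhe41dTomato-Cre+/- library lay above the WT libraries of its gate. The genotype difference was called in CCR2hi (1.65-fold, log2 0.73 ± 0.18, adjusted p = 0.00705) and not in CCR2low (log2 0.41 ± 0.17, adjusted p = 0.071), and the difference between them was not called (-0.31 ± 0.25, adjusted p = 0.418). In CCR2low it was called in 9 other settings, among them DESeq2 (0.48, adjusted p = 0.0292), only the 2 groups compared (0.57, adjusted p = 0.00621), and leaving out WT CCR2hi replicate 1 (0.60, adjusted p = 0.00069) or 2 (0.41, adjusted p = 0.044), Bhlhe41dTomato-Cre+/- CCR2low replicate 3 (0.60, adjusted p = 0.0274) or any Bhlhe41dTomato-Cre+/- CCR2hi library (0.60 to 0.61, adjusted p = 0.0195 to 0.0227). Between the genotypes in CCR2low the median of all genes moved by 0.06 with DESeq2 and by 0.15 with only the 2 groups. Leaving out WT CCR2hi replicate 1 or 2 moved it by 0.19 and 0. Without Bhlhe41dTomato-Cre+/- CCR2low replicate 3 it moved by 0.16, and without any Bhlhe41dTomato-Cre+/- CCR2hi library by 0.19. The WT gate difference was 1.57-fold (log2 0.65 ± 0.18, adjusted p = 0.00611). Without any of the 3 Bhlhe41dTomato-Cre+/- CCR2hi libraries, which moved the median of all genes by -0.2, it was 0.44 to 0.45 (adjusted p = 0.0519 to 0.0583). It was also not called on log2(TPM + 1) (0.32, adjusted p = 0.175), and the macrophage scaling turned it to -2.83 and the genotype value in CCR2hi to -0.63. Stard4, a carrier of cholesterol between membranes, went the other way from the efflux genes: it had 8.73, 7.95 and 8.87 CPM in WT CCR2low against 19.4, 17.7 and 14.7 in WT CCR2hi, a log2 difference of -1.02 ± 0.15 (adjusted p = 7.48e-05). In Bhlhe41dTomato-Cre+/- it had 11.03, 10.6 and 8.41 CPM in CCR2low and 21.4, 19.1 and 19.2 in CCR2hi (log2 -0.99 ± 0.15, adjusted p = 0.000102). No genotype difference of Stard4 was called (log2 0.24 and 0.21).

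The enzymes that lead from acetyl-CoA to lanosterol did not share a direction. Between the WT gates 3 of 10 were higher in CCR2low (Pmvk, Mvd and Lss), at 30% against 29.8% of all tested genes, and Hmgcs1 was lower, and in Bhlhe41dTomato-Cre+/- only Fdft1 was called, as lower in CCR2low. By TPM the 10 enzymes summed to 104.1 to 107.7 in WT CCR2low, 102.0 to 134.2 in WT CCR2hi, 103.2 to 113.4 in Bhlhe41dTomato-Cre+/- CCR2low and 148.7 to 159.4 in Bhlhe41dTomato-Cre+/- CCR2hi, so the last group lay above the other 9 libraries. Fdps, which makes farnesyl pyrophosphate, had the highest mean of the 10 in each group, from 26.3 TPM in WT CCR2low to 48.2 TPM in Bhlhe41dTomato-Cre+/- CCR2hi. These sums carry no test, since the members were chosen as a list.

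Pmvk, the phosphomevalonate kinase, stood at 19.7, 17.4 and 17.9 CPM in WT CCR2low and at 7.89, 9.03 and 7.18 CPM in WT CCR2hi, a 2.29-fold difference (log2 1.19 ± 0.19, adjusted p = 0.000107). In Bhlhe41dTomato-Cre+/- its values were 16.0, 13.2 and 20.9 CPM in CCR2low and 14.0, 13.7 and 18.8 CPM in CCR2hi, which overlap. WT CCR2hi was thus the single low group. Pmvk was 1.93-fold higher in Bhlhe41dTomato-Cre+/- CCR2hi than in WT CCR2hi (log2 0.95 ± 0.19, adjusted p = 0.00219), and the gate difference was smaller in Bhlhe41dTomato-Cre+/- by -1.08 ± 0.26 (adjusted p = 0.0194). The latter was lost without WT CCR2hi replicate 1 (-0.86, adjusted p = 0.0709), Bhlhe41dTomato-Cre+/- CCR2low replicate 1 (-1.05, adjusted p = 0.0546), or Bhlhe41dTomato-Cre+/- CCR2hi replicate 1 (-0.94, adjusted p = 0.0589), 2 (-0.96, adjusted p = 0.0524) or 3 (-0.73, adjusted p = 0.119). Under the macrophage scaling it was 0.27, and Pmvk was lower in both CCR2low groups.

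Hmgcs1, the cytosolic HMG-CoA synthase whose upstream stretch holds the sterol regulatory element shown above, had its lowest group in WT CCR2low, at 16.8, 17.8 and 24.3 CPM. It had 46.6, 24.5 and 26.1 CPM in WT CCR2hi, 41.2, 35.8 and 26.2 in Bhlhe41dTomato-Cre+/- CCR2low and 51.5, 41.9 and 32.0 in Bhlhe41dTomato-Cre+/- CCR2hi. The 3 WT CCR2low libraries lay below the 9 others, though by a narrow margin at 24.3 against 24.5. It was higher in Bhlhe41dTomato-Cre+/- CCR2low than in WT CCR2low (1.75-fold, log2 0.81 ± 0.27, adjusted p = 0.0254) and lower in WT CCR2low than in WT CCR2hi (log2 -0.72 ± 0.26, adjusted p = 0.0304). The genotype call was lost without WT CCR2low replicate 1 (0.71, adjusted p = 0.0911) or 2 (0.74, adjusted p = 0.0853), or Bhlhe41dTomato-Cre+/- CCR2low replicate 1 (0.66, adjusted p = 0.105) or 2 (0.78, adjusted p = 0.0587), and on log2(TPM + 1) (0.71, adjusted p = 0.0845). The gate call was lost without WT CCR2low replicate 1 (-0.62, adjusted p = 0.106) or 2 (-0.65, adjusted p = 0.0968), or WT CCR2hi replicate 1 (-0.57, adjusted p = 0.0646). Idi1, the isopentenyl diphosphate isomerase, was among the least abundant members, at 0.956 to 1.92 CPM in WT CCR2low and 2.47 to 4.55 in Bhlhe41dTomato-Cre+/- CCR2low (log2 1.32 ± 0.40, adjusted p = 0.0164). Its call was lost without WT CCR2low replicate 2 (1.07, adjusted p = 0.0717) or Bhlhe41dTomato-Cre+/- CCR2low replicate 1 (1.16, adjusted p = 0.0649), and on log2(TPM + 1) (1.08, adjusted p = 0.0554).

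Fdps was 1.71-fold higher in Bhlhe41dTomato-Cre+/- CCR2hi, at 26.8 to 39.0 CPM, than in WT CCR2hi, at 17.2 to 23.5 CPM (log2 0.78 ± 0.23, adjusted p = 0.0194). That call was lost without WT CCR2hi replicate 2 (0.69, adjusted p = 0.0796) or 3 (0.72, adjusted p = 0.0681), or Bhlhe41dTomato-Cre+/- CCR2hi replicate 2 (0.74, adjusted p = 0.0587) or 3 (0.65, adjusted p = 0.072). Between the gates of Bhlhe41dTomato-Cre+/- it stood at -0.54 ± 0.23 (adjusted p = 0.0608), and with a replicate block it was called, at -0.56 (adjusted p = 0.0144). Fdft1, the squalene synthase, was 1.8-fold lower in Bhlhe41dTomato-Cre+/- CCR2low, at 9.27 to 10.6 CPM, than in its CCR2hi, at 15.2 to 21.8 CPM (log2 -0.85 ± 0.16, adjusted p = 0.000568). Mvd was 1.48-fold and Lss, the lanosterol synthase, 1.7-fold higher in WT CCR2low than in WT CCR2hi (log2 0.57 ± 0.16 and 0.77 ± 0.23, adjusted p = 0.00751 and 0.00972). Both were lost on log2(TPM + 1), at 0.19 (adjusted p = 0.233) and 0.08 (adjusted p = 0.81). Mvd was also lost without WT CCR2hi replicate 1 (0.35, adjusted p = 0.11) or any Bhlhe41dTomato-Cre+/- CCR2hi library (0.36, adjusted p = 0.0757 to 0.0791), and Lss without Bhlhe41dTomato-Cre+/- CCR2hi replicate 1 (0.57, adjusted p = 0.0556). Acat2, Mvk and Sqle, the thiolase, the mevalonate kinase and the squalene epoxidase, were called in no comparison, with log2 differences from -0.40 to 0.56 over the 5 comparisons.

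**Figure D4:**
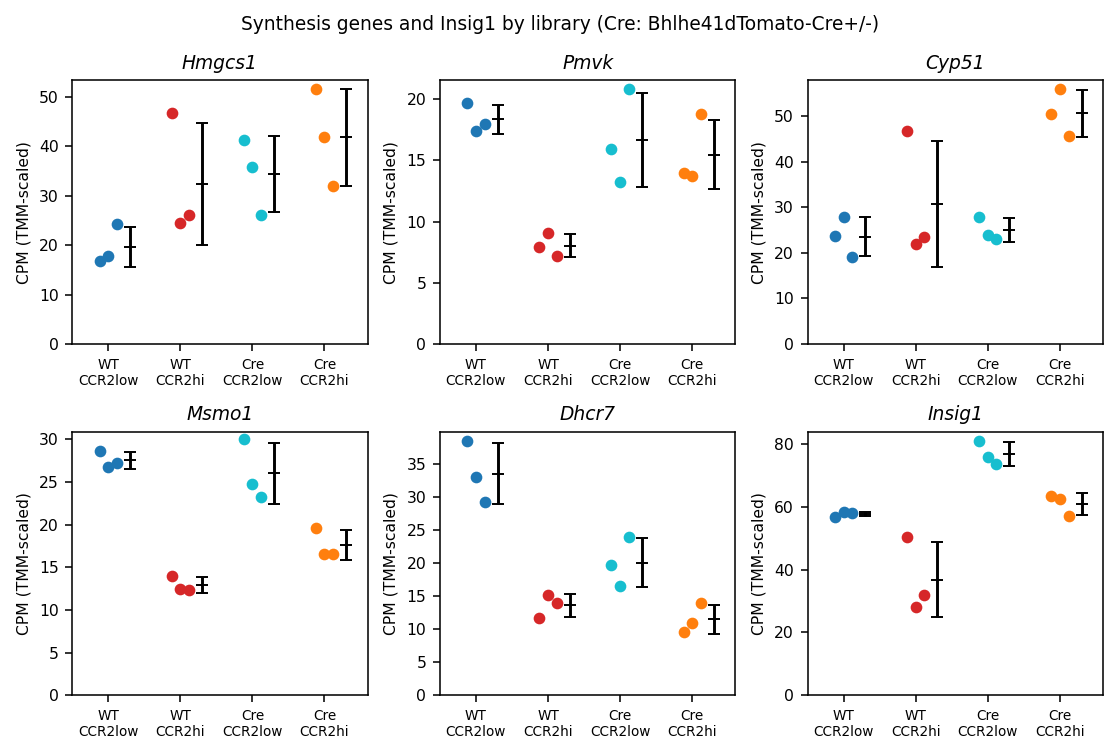
CPM on TMM-scaled library sizes (vertical axes from 0) of 5 synthesis enzymes and Insig1 in the 4 groups, 1 point per library, with the mean and SD of 3 libraries in black. Pmvk is low only in WT CCR2hi, Hmgcs1 is lowest in WT CCR2low, and Dhcr7 is highest in WT CCR2low.

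After lanosterol, 5 of 8 enzymes were higher in WT CCR2low than in WT CCR2hi and none was lower (under the macrophage scaling all of these turned negative). Of all tested genes 29.8% were higher and 30% lower there. Dhcr7, which makes the last step to cholesterol, stood at 38.5, 33.0 and 29.3 CPM in WT CCR2low and at 11.8, 15.2 and 14.0 CPM in WT CCR2hi (2.46-fold, log2 1.30 ± 0.18, adjusted p = 4.1e-05). In Bhlhe41dTomato-Cre+/- it stood at 19.7, 16.6 and 24.0 CPM in CCR2low and 9.64, 11.02 and 13.9 CPM in CCR2hi (log2 0.80 ± 0.18, adjusted p = 0.00231). It was the single synthesis enzyme of the 18 that was lower in Bhlhe41dTomato-Cre+/- in CCR2low (1.67-fold, log2 -0.74 ± 0.18, adjusted p = 0.00539), with no overlap. Msmo1, the methylsterol monooxygenase, had 28.6, 26.8 and 27.2 CPM in WT CCR2low against 14.0, 12.4 and 12.3 in WT CCR2hi (2.13-fold, log2 1.09 ± 0.14, adjusted p = 1.41e-05). In Bhlhe41dTomato-Cre+/- it had 29.99, 24.8 and 23.2 CPM in CCR2low and 19.7, 16.6 and 16.6 in CCR2hi (log2 0.56 ± 0.14, adjusted p = 0.00321), a call lost on log2(TPM + 1) (0.33, adjusted p = 0.132).

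Tm7sf2, a sterol reductase, and Ebp, the sterol isomerase, were higher in CCR2low in both genotypes, by log2 0.90 ± 0.20 and 0.95 ± 0.14 in WT and by 0.72 ± 0.20 and 0.62 ± 0.14 in Bhlhe41dTomato-Cre+/-, and neither differed between genotypes at the threshold. Nsdhl was higher in WT CCR2low (log2 0.59 ± 0.15, adjusted p = 0.00326), but not on log2(TPM + 1) (0.21, adjusted p = 0.188). Cyp51, the lanosterol demethylase, and Hsd17b7, the ketosteroid reductase, went the other way: in Bhlhe41dTomato-Cre+/- both were lower in CCR2low, by 2.03-fold (log2 -1.02 ± 0.25, adjusted p = 0.00328) and 2.13-fold (log2 -1.09 ± 0.28, adjusted p = 0.00526). In WT both had a negative value that was not called (-0.39 ± 0.25, adjusted p = 0.191, and -0.58 ± 0.28, adjusted p = 0.082). On log2(TPM + 1) Cyp51 was called there too (-0.70, adjusted p = 0.0227). Hsd17b7 was called there without WT CCR2hi replicate 2 or 3, Bhlhe41dTomato-Cre+/- CCR2low replicate 3 or any Bhlhe41dTomato-Cre+/- CCR2hi library (-0.73 to -0.79, adjusted p = 0.0299 to 0.0446). Cyp51 had 46.7, 22.0 and 23.6 CPM in WT CCR2hi and 50.5, 56.0 and 45.6 in Bhlhe41dTomato-Cre+/- CCR2hi. The genotype difference was called (log2 0.72 ± 0.24, adjusted p = 0.0385) although WT replicate 1 lay within the range of the other group. That call was lost without WT CCR2hi replicate 2 (0.53, adjusted p = 0.155) or 3 (0.56, adjusted p = 0.141), without Bhlhe41dTomato-Cre+/- CCR2hi replicate 1 (0.70, adjusted p = 0.086), 2 (0.63, adjusted p = 0.127) or 3 (0.79, adjusted p = 0.055), when only the 2 groups were fitted (0.72, adjusted p = 0.0688) and on log2(TPM + 1) (0.53, adjusted p = 0.102). Msmo1 was 1.36-fold higher in Bhlhe41dTomato-Cre+/- CCR2hi than in WT CCR2hi (log2 0.45 ± 0.14, adjusted p = 0.0245), lost without WT CCR2hi replicate 2 (0.42, adjusted p = 0.0779) or 3 (0.41, adjusted p = 0.0797) and without Bhlhe41dTomato-Cre+/- CCR2hi replicate 1 (0.34, adjusted p = 0.126) or 2 (0.48, adjusted p = 0.0528), with no filter beyond 1 count (0.39, adjusted p = 0.129) and on log2(TPM + 1) (0.22, adjusted p = 0.355). Sc5d, the lathosterol desaturase, was called in no comparison. It stood between 8.61 and 12.2 CPM in all 12 libraries.

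By TPM the enzymes after lanosterol summed to 156.1 to 165.8 in WT CCR2low, 117.2 to 129.5 in WT CCR2hi, 132.0 to 147.7 in Bhlhe41dTomato-Cre+/- CCR2low and 122.0 to 124.3 in Bhlhe41dTomato-Cre+/- CCR2hi. By TPM, WT CCR2low thus had the highest sum after lanosterol, while Bhlhe41dTomato-Cre+/- CCR2hi had the highest sum before it. The groups also differed in their share of macrophage identity counts, and its part in these sums was not tested. Within WT CCR2low the mean levels of these 8 enzymes ran from 1.62 TPM for Hsd17b7 to 57.4 TPM for Ebp. By mean CPM, 9 of the 18 synthesis enzymes had their highest group in WT CCR2low (Acat2, Pmvk, Mvd, Lss, Tm7sf2, Msmo1, Nsdhl, Ebp and Dhcr7), and 3 had their lowest there (Hmgcs1, Idi1 and Cyp51). Mvk had its second highest there, and Fdps, Fdft1, Sqle, Hsd17b7 and Sc5d their second lowest.

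A further 26 genes of sterol handling were read as the surroundings of the members. Between the WT gates 17 of them were higher in CCR2low and 5 lower, and in Bhlhe41dTomato-Cre+/- 12 were higher and 4 lower, that is 65.4% higher and 19.2% lower in WT and 46.2% and 15.4% in Bhlhe41dTomato-Cre+/-, against 29.8% and 30% and 24.9% and 29.1% of all tested genes (1 higher in each and 22 and 18 lower under the macrophage scaling). The lysosomal route was among the higher ones: Lipa, the acid lipase that frees cholesterol from lipoproteins, stood at a mean of 722 CPM in WT CCR2low and 134 in WT CCR2hi (log2 2.43 ± 0.14, adjusted p = 3.48e-08). Npc1, which moves that cholesterol out of the lysosome, differed by log2 1.90 ± 0.12 (adjusted p = 5.82e-08). Nceh1, a neutral hydrolase of cholesterol esters, differed by 3.61 ± 0.15 (adjusted p = 9.74e-09), and Gramd1b, a transporter of plasma membrane cholesterol, by 2.64 ± 0.18 (adjusted p = 1.06e-07). In Bhlhe41dTomato-Cre+/- the same 4 genes differed by 2.23 ± 0.13, 1.72 ± 0.12, 2.27 ± 0.14 and 2.70 ± 0.18.

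Within CCR2low, 4 of the 26 were higher in Bhlhe41dTomato-Cre+/- and 7 lower, at 15.4% and 26.9% close to the 16.4% and 26.7% of all tested genes. Cd36, a scavenger receptor for oxidised lipoproteins and fatty acids, was higher (mean 782 against 309 CPM, log2 1.34 ± 0.26, adjusted p = 0.00151), as was Lpl, the lipoprotein lipase (694 against 332 CPM, log2 1.06 ± 0.22, adjusted p = 0.00195). Cyp27a1, which makes an oxysterol that activates LXR, was lower (25.7 against 47.6 CPM, log2 -0.89 ± 0.18, adjusted p = 0.00151), and so was Pltp, the phospholipid transfer protein (495 against 1021 CPM, log2 -1.05 ± 0.25, adjusted p = 0.00521). Within CCR2hi, 9 were higher and 1 lower, at 34.6% and 3.85% against 16.2% and 15.9% of all genes. Nceh1 was higher there (59.3 against 18.1 CPM, log2 1.71 ± 0.14, adjusted p = 3.04e-06), and Lrp1, an endocytic receptor that binds apolipoprotein E, was lower (918 against 2087 CPM, log2 -1.18 ± 0.16, adjusted p = 0.000132). The gate difference differed between genotypes for 8 of the 26, 2 in the direction of a larger value in Bhlhe41dTomato-Cre+/- and 6 in the other, at 7.69% and 23.1% against 4.74% and 7.85% of all genes. Nceh1 had the smallest p of these (log2 -1.34 ± 0.19, adjusted p = 0.00137). The macrophage identity genes themselves had a median of 1.19 log2 units between genotypes in CCR2hi, with 61.1% higher. Their median interaction was -1.05, with 38.9% lower. Scaling to those genes moved the median of all genes by -1.22 in CCR2hi and by 1.35 in the interaction. The part of the macrophage share in these counts and in the Nceh1 values was not tested.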

How the data were processed

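Libraries of 3 replicates in each of 4 groups were grouped by sample title, since other label fields of the Bhlhe41dTomato-Cre+/- samples are shifted. Their columns are named KD in the deposited tables and were matched by gate and replicate number. Per the submitters' processing notes, CASAVA 1.8, STAR 2.4.0j and RSEM were used with mm10, and which annotation was used is not given in the sources used here. A deposited table of expected counts holds whole numbers per Ensembl gene, and the deposited TPM table holds the authors' TPM values. Both list 53801 genes, 27248 of them without a count. Depth ran from 17.7 to 20.83 M counts.

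After TMM scaling of the 12 libraries and filterByExpr, 14964 genes were tested in R 4.3.3 with edgeR 4.0.16 (glmQLFit and glmQLFTest, a mean per group, 8 residual degrees of freedom, common biological coefficient of variation 18.9%). The 5 comparisons are the gates in each genotype, the genotypes in each gate, and the interaction, which is the gate difference in Bhlhe41dTomato-Cre+/- minus that in WT. Each SE was taken as the absolute log2 fold change divided by the root of F, and the Benjamini-Hochberg adjustment ran across the tested genes. The scripts were tested on simulated counts. Other settings were library size scaling, DESeq2 1.42.0, scaling to macrophage identity genes, no filter beyond 1 count, limma 3.58.1 on log2(TPM + 1) and log2(TPM + 0.1), a replicate block, only the 2 groups compared, and leaving out each of the 12 libraries. Where a left-out library leaves 2 in a group, the spread is pooled over the groups. Levels are compared between genes by TPM only. Residuals of same-numbered libraries correlated at 0.23, 0.12 and 0.4 between the Bhlhe41dTomato-Cre+/- gates, all above the limit of 0.1. Bhlhe41dTomato-Cre+/- CCR2low replicate 2 and CCR2hi replicate 1 also passed it, at 0.22. So did WT CCR2low replicate 1 and Bhlhe41dTomato-Cre+/- CCR2low replicate 3, from different mice, at 0.23. This limit can therefore not show which libraries are pairs. The labels state no pairing, and the main fit uses none.

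The members, gene lists and tests were chosen with earlier results of these data known. Values in every library are given for up to 6 called members per comparison by adjusted p and always for Srebf2, Insig1, Nr1h3, Abca1, Abcg1 and Apoe. From the context lists up to 4 genes per comparison were named by adjusted p. The ratios within libraries were chosen after the data were seen. Promoter windows and their build are from RefSeq.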

Additional observations from a re-analysis of the deposited data

Results flagged for a closer look

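Both results were drawn out because the gate difference itself differed between genotypes by the interaction test. Mylip had an interaction of -1.86 ± 0.24 (log2, adjusted p = 0.00107), with CCR2low 3.19-fold higher in WT and 1.14-fold lower, not called, in Bhlhe41dTomato-Cre+/-. Pmvk had -1.08 ± 0.26 (adjusted p = 0.0194), with CCR2low 2.29-fold higher in WT and 1.08-fold higher, not called, in Bhlhe41dTomato-Cre+/-. The share of macrophage identity counts was higher in CCR2low in both genotypes. It differed between the gates by more in WT (3.49 to 3.8% against 0.247 to 0.58%) than in Bhlhe41dTomato-Cre+/- (3.07 to 3.44% against 0.85 to 1.12%). Scaled to those genes, Mylip and Pmvk were lower in CCR2low in WT (-1.69 and -2.14) and in Bhlhe41dTomato-Cre+/- (-2.16 and -1.88). The interaction of Mylip then kept its sign at -0.47 (adjusted p = 0.439) and that of Pmvk turned to 0.27. The part of the macrophage share in these interactions was not tested. Unusual single libraries were not searched for, since groups of 3 are too small for that rule.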

How the results depend on the processing

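Scaling to macrophage identity genes moved most values, since it shifted the median of all genes by -3.33, -1.98, 0.13, -1.22 and 1.35 log2 units (WT gates, Bhlhe41dTomato-Cre+/- gates, genotypes in CCR2low, genotypes in CCR2hi, interaction). Of all called genes, 0.745, 0.51, 47.4, 1.98 and 98.3% were then higher, against 49.8, 46.1, 38, 50.4 and 37.7% with TMM. It called 28, 25, 0, 20 and 9 members. It reversed these log2 differences between the WT gates: Acat2 -2.97, Mvk -3.09, Pmvk -2.14, Mvd -2.77, Fdps -3.32, Sqle -3.44, Lss -2.66, Tm7sf2 -2.32, Msmo1 -2.28, Nsdhl -2.78, Ebp -2.36, Sc5d -3.19, Dhcr7 -2.0, Insig1 -2.83, Srebf1 -3.19, Abca1 -1.39, Abcg1 -0.26, Nr1h2 -2.93, Nr1h3 -2.04, Mylip -1.69 and Soat1 -1.26. Between the Bhlhe41dTomato-Cre+/- gates it reversed Pmvk -1.88, Mvd -1.86, Lss -1.74, Tm7sf2 -1.27, Msmo1 -1.43, Nsdhl -1.68, Ebp -1.36, Dhcr7 -1.17, Insig1 -1.65, Srebf1 -1.77, Abcg1 -0.16, Nr1h2 -1.89, Nr1h3 -0.62 and Soat1 -0.38. Between the genotypes in CCR2hi it reversed Acat2 -0.94, Mvk -0.91, Pmvk -0.29, Mvd -0.99, Fdps -0.54, Fdft1 -0.88, Lss -1.20, Cyp51 -0.69, Tm7sf2 -1.06, Msmo1 -0.80, Nsdhl -1.24, Ebp -0.91, Sc5d -1.0, Insig1 -0.63, Srebf2 -1.04, Stard4 -1.06, Abca1 -0.49, Abcg1 -0.89, Nr1h3 -0.80, Apoe -0.75, Mylip -0.49 and Soat1 -0.69, and in the interaction Pmvk 0.27, Tm7sf2 1.05 and Srebf2 1.23. These are sign changes of a value that was called before or after. Outside this scaling the only such change was Nr1h2 between the WT gates, at -0.05 with limma on both TPM scales. Values called neither before nor after also changed sign in some settings, as Acat2, Fdps and Sqle did between the WT gates (to as low as -0.12, -0.23 and -0.26) and Ebp between the genotypes in CCR2hi (to -0.15). The cause of these changes outside the macrophage scaling was not tested.

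The interaction called 2 members, 5 with library size scaling and 4 with DESeq2. Leaving out 1 library gave 6 to 12 genotype calls in CCR2low, 5 to 11 in CCR2hi and 1 to 4 in the interaction. The interaction count was 4 without WT CCR2hi replicate 3 and 1 without Bhlhe41dTomato-Cre+/- CCR2low replicate 1 or any Bhlhe41dTomato-Cre+/- CCR2hi library. With a replicate block the 5 comparisons called 20, 15, 10, 10 and 3 members, against 19, 14, 10, 9 and 2. For the gates and the interaction the block was the replicate number within each genotype. For the genotype comparisons it joined same-numbered libraries of WT and Bhlhe41dTomato-Cre+/- mice, which the labels do not pair. The added calls were Idi1 between the WT gates (-0.79, adjusted p = 0.0275), Fdps between the Bhlhe41dTomato-Cre+/- gates (-0.56, adjusted p = 0.0144), Sqle between genotypes in CCR2hi (0.61, adjusted p = 0.0375) and Abcg1 in the interaction (-1.15, adjusted p = 0.0259), and the block changed no other member's call. Same-numbered WT libraries correlated at -0.06, 0.03 and -0.05 between the gates, which cannot show whether they are pairs. Idi1, at 0.956 to 5.20 CPM, has the fewest counts of the members and the largest SE.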

Other observations

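Genes of fatty acid synthesis known as targets of SREBP1 were read beside the sterol genes, and 14 of 15 were tested. Within CCR2low, 10 were lower in Bhlhe41dTomato-Cre+/- than in WT and 1, Elovl6, was higher, at 71.4% and 7.14% against 26.7% and 16.4% of all tested genes, with a list median of -0.69 log2 units against -0.18 over all tested genes. Mid1ip1, which promotes the polymerisation of acetyl-CoA carboxylase, stood at a mean of 38.3 against 91.4 CPM (log2 -1.26 ± 0.12, adjusted p = 1.88e-05). Scd1, the stearoyl-CoA desaturase, stood at 6.67 against 21.7 CPM (log2 -1.70 ± 0.26, adjusted p = 0.00029). Me1, the malic enzyme, fell by 1.39 on the log2 scale (adjusted p = 0.000183), and Lpin1, a phosphatidate phosphatase, by 1.63 (adjusted p = 0.000211). Adipocyte markers made up 0.0803% of counts in WT CCR2low replicate 3, 0.00224 and 0.00421% in the other WT CCR2low libraries and at most 0.000208% elsewhere, with Lep at 0 in every library. Without WT CCR2low replicate 3 the count was again 10 lower, with none higher. The other WT CCR2low libraries still held larger adipocyte shares than every other group. Of the adipocyte markers tested, 5 of 5 were lower in Bhlhe41dTomato-Cre+/- CCR2low, and the part of adipocyte RNA in these differences was not tested. Scaled to macrophage identity genes the count was 4 lower and none higher. Over the 12 fits that each leave out 1 library, 7 to 10 were lower. Between the genotypes in CCR2hi 2 were lower and 0 higher, at 14.3% and 0% against 15.9% and 16.2% of all tested genes. Between the gates, 6 were lower in CCR2low and 3 higher in WT (42.9% and 21.4%, against 30% and 29.8% of all genes). In Bhlhe41dTomato-Cre+/- 7 were lower and 2 higher (50% and 14.3%, against 29.1% and 24.9%).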
